A study of Mus musculus with 17 samples.

Results

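Collagen genes were examined in poly(A)+ RNA from mouse male germ cells and newborn testes. They were taken as every gene whose symbol is Col, a number, a and a number, which gave 44 of the 23980 genes in each of the deposited tables. All mice were on a C57BL/6J background. The 6 libraries of leptotene/zygotene (L/Z) spermatocytes, sorted by FACS from mice 3 to 4 weeks old, comprised 2 each from wild-type mice (WT), from Pld6 KO and from Dnmt3l KO mice. The 11 libraries of whole testes at postnatal day 0 (P0) comprised 2 WT, 4 Pld6 KO, 2 Dnmt3l KO and 3 libraries of the double knockout (DKO), which lacks both genes. Pld6 encodes a mitochondrial factor required for piRNA biogenesis, and Dnmt3l a cofactor of de novo DNA methylation in male germ cells. The labels name no allele, transgene or Cre. The labels call the replicates biological without naming the animals, so p-values measure the spread between these libraries.

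Collagens are triple-helical proteins of the extracellular matrix. Fibrillar collagens form the rope-like fibers of connective tissue, type IV chains form the sheet of the basement membrane, type VI chains form beaded filaments, and FACITs (fibril-associated collagens with interrupted triple helices) decorate the fibrils. In the testis, fibroblasts and peritubular myoid cells around the tubule secrete most fibrillar collagen, and the basement membrane on which the Sertoli cells stand is made by Sertoli and myoid cells together. The 44 genes comprised 11 fibrillar, 6 basement membrane, 6 beaded filament, 9 FACIT, 4 transmembrane and 3 short-chain collagens, 2 multiplexins, 1 anchoring fibril collagen and 2 others.

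Promoter sequences are shown for Col4a5 and Col16a1, the pair of genes with the clearest changes below, for Col4a6, which shares a divergent promoter region with Col4a5, and for Col1a2, an abundant fibrillar chain whose level did not pass the test in any comparison. Each sequence runs 5′ to 3′ on the strand of its gene and ends at the base before the outermost RefSeq transcript of that gene (GRCm38.p6). The start sites of the RefSeq promoter table lie further in for Col4a5 (141475419), Col4a6 (141474076) and Col16a1 (130047840), so the windows printed for these genes stop short of them. Capitals mark matches on either strand to the CCAAT box, searched by the letters of its name, or to the GC box, searched as GGGCGG.
Col4a5, chrX:141475169-141475369, plus strand: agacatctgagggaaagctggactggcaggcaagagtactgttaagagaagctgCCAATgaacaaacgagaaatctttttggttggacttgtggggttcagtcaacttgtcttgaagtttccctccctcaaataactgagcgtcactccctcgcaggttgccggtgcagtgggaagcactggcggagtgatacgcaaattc
Col4a6, chrX:141474096-141474326, minus strand: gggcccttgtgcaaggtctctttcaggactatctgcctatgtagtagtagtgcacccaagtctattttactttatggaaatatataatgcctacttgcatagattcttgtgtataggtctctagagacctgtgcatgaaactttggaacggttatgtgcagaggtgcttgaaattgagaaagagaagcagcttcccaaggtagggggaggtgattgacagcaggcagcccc
Col16a1, chr4:130047590-130047816, plus strand: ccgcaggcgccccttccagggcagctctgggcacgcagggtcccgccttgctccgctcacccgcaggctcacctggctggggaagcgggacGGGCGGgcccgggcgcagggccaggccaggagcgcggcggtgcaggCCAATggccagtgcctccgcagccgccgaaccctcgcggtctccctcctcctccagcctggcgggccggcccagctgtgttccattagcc
Col1a2, chr6:4505368-4505617, plus strand: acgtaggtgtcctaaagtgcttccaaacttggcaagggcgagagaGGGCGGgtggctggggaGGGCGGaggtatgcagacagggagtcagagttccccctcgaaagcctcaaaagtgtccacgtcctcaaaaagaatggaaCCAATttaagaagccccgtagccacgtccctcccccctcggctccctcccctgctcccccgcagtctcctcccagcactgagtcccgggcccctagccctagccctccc
RefSeq promoters were found for 35 of the 44 genes, as 38 promoters. In the 250 bases before each start site of that table, which for Col4a5 and Col4a6 hold 1 GC box each that is not within the printed stretch, the motifs were counted over all promoters. A CCAAT box was present in 13 of the 38, or 34.2%, and in 33.8% of all 32851 RefSeq promoters. A GC box was present in 57.9% of the collagen promoters and 32.7% of all promoters, and TATAAA, searched on both strands, in 13.2% and 12.4%. These shares describe letters in the window and no test was made of them. Among the neighbouring members, Col4a1 and Col4a2 overlap at their 5′ ends by 85 bp on chromosome 8 and Col4a3 and Col4a4 by 114 bp on chromosome 1. Col4a5 and Col4a6 do not overlap and lie 1274 bp apart on chromosome X. Where overlapping genes lie on opposite strands, as Col4a1 and Col4a2 do, the assignment of fragments at their starts depends on strand. Whether the counting used strand was not checked.

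Collagen RNA was a small part of the spermatocyte libraries and a large part of the testis libraries. Collagen genes took 0.0431% to 0.0975% of all fragment counts in the L/Z libraries and 0.979% to 2.43% in the P0 libraries. The tables of the stages were normalized separately, so levels are set side by side without a test. In FPKM, which is scaled to transcript length and allows genes to be compared, 26 of the 44 genes had a WT mean of at least 1 at L/Z and 37 at P0. At least 100 FPKM was reached by 0 genes at L/Z and by 7 at P0.

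In P0 WT testes the leading gene was Col3a1, the chain of type III collagen, with 360.5 and 551.7 FPKM. Col1a2 and Col1a1, the chains of type I collagen, had 389.4 ± 16.2 and 202.0 ± 25.0 FPKM (SD, n = 2). Col6a1 and Col6a2, of the beaded filaments, had 330.3 ± 44.6 and 291.5 ± 11.1 FPKM (SD, n = 2). The SDs of neighbours in this order overlapped between Col3a1, Col1a2 and Col6a1, whereas the 2 Col1a1 values lay below all 8 values of the other 4 genes. Among the basement membrane chains, Col4a1 had 185.6 ± 20.4 and Col4a2 133.4 ± 21.0 FPKM (SD, n = 2), and Col4a4, Col4a5, Col4a3 and Col4a6 had WT means of 20.1, 16.1, 6.31 and 5.03 FPKM.

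Of the remaining classes at P0, the leading members were Col18a1, the multiplexin that carries endostatin, at 81.3 ± 14.3 FPKM, Col26a1, known from testis and ovary, at 26.7 ± 0.534, the transmembrane Col23a1 at 23.6 ± 0.451, the FACIT Col16a1 at 21.1 ± 3.50, Col8a2 of the short-chain networks at 6.66 ± 1.41, and Col7a1 of the anchoring fibrils at 1.27 ± 0.173 (SD, n = 2).

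The order differed in spermatocytes. Col1a1 had 20.6 and 8.39 FPKM in the WT libraries, Col5a1, a minor fibrillar chain that sets fibril diameter, 15.3 and 11.9, Col18a1 17.8 and 9.10, Col22a1, a FACIT of tissue junctions, 10.7 and 9.30, and Col1a2 16.4 and 2.34. The ranges of these 5 genes overlapped, except that Col5a1 was above Col22a1 in both libraries. Col22a1, so placed in spermatocytes, had only 1.98 and 1.49 FPKM in the P0 WT testes.

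**Figure D1:**
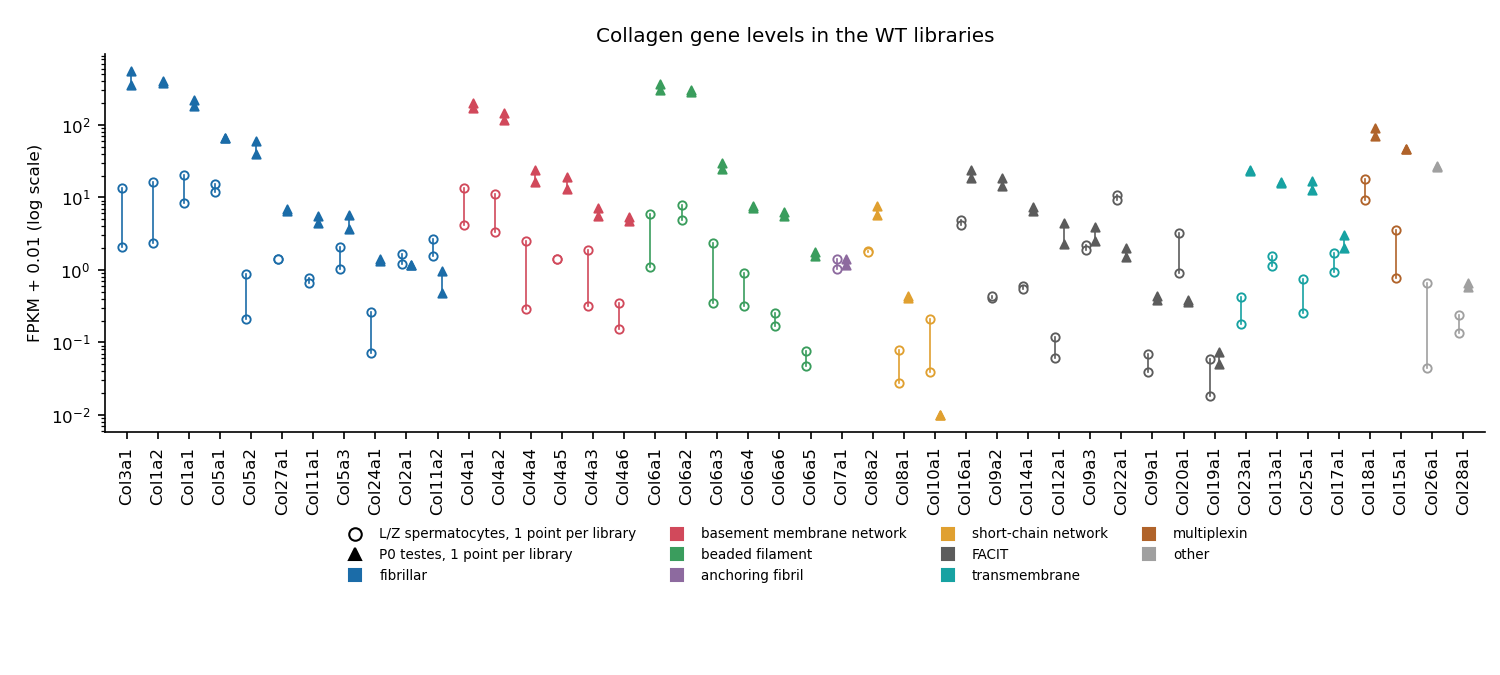
FPKM plus 0.01 on a log axis for each of the 44 collagen genes in the WT libraries, with 1 point per library and a line joining replicates, open circles for L/Z spermatocytes, filled triangles for P0 testes, and colors for structural classes. At P0, 7 genes lie above 100 FPKM, and at L/Z the replicates of Col1a2, Col3a1 and Col4a4 lie far apart whereas those of Col4a5, Col5a1 and Col22a1 lie close together.

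Ratios between partner chains varied less for some pairs than for others across the P0 testes. The FPKM ratio of Col1a1 to Col1a2 was 0.433 to 0.742 over the 11 P0 libraries, that of Col4a1 to Col4a2 was 1.35 to 1.76, and that of Col6a1 to Col6a2 was 0.913 to 1.21. The ratio of Col4a4 to Col4a3 was 2.39 to 3.84, and that of Col9a1, a gene of few counts, to Col9a2 ran from 0.00628 to 0.0424. In the 6 L/Z libraries the Col1a1 to Col1a2 ratio was 1.25 to 4.55 and the Col6a1 to Col6a2 ratio 0.223 to 0.743, a wider spread on fewer counts, and Col4a1 to Col4a2 was 0.987 to 1.58.

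The spermatocyte libraries stood apart from each other in a way that crosses the genotypes. WT replicate 1 and Pld6 KO replicate 1 held 8.27% and 8.06% of their counts in Rn45s, the 45S pre-rRNA gene, against 0.134% to 0.301% in the other 4. The same libraries held the most collagen RNA. Col3a1 had 71.5 and 11.1 CPM (counts scaled to library size by TMM) in the WT replicates, 28.1 and 3.55 for Pld6 KO, 9.60 and 7.73 for Dnmt3l KO. Col1a2 had 81.4 and 11.6 CPM for WT, 40.3 and 6.78 for Pld6 KO, 13.2 and 15.7 for Dnmt3l KO. For both genes the first replicates of WT and Pld6 KO were the highest of the 6 libraries. The second WT replicate was below both Dnmt3l KO libraries for Col1a2 and above both for Col3a1. Of the 39 collagen genes tested at L/Z, 33 were higher in WT replicate 1 than in replicate 2 and 30 were higher in Pld6 KO replicate 1 than in replicate 2. In Dnmt3l KO, whose replicate 1 held 0.244% Rn45s, 29 were higher in replicate 1, so this count was not particular to the Rn45s-rich libraries.

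Col4a1 and Col4a2 behaved alike, with 3.20 and 3.39 times more CPM in the first than in the second WT library, whereas the ratio was 1.03 for Col4a5, 1.29 for Col5a1, 1.15 for Col22a1 and 1.15 for Col16a1. Markers of some somatic cells moved with them and others did not. The summed CPM of 6 interstitial fibroblast markers was 87.6 and 24.6 for WT, 54.1 and 19.2 for Pld6 KO, 16.2 and 17.4 for Dnmt3l KO, with no marker at 0 counts. The 10 Sertoli markers summed to 736.1 and 498.2, 715.5 and 468.7, and 471.1 and 138.6 CPM in the same order, also with none at 0. The 6 peritubular myoid markers summed to 198.8 and 61.0, 144.7 and 68.1, and 62.4 and 177.6 CPM, and the 8 Leydig markers to 39.3 and 27.8, 29.1 and 19.2, and 14.2 and 10.4 CPM, with Cyp17a1 at 0 in both Dnmt3l KO libraries. The 6 endothelial markers summed to 23.5 and 11.1, 38.1 and 12.1, and 12.4 and 31.6 CPM, and the 7 macrophage markers to 32.7 and 7.14, 37.8 and 20.6, and 36.6 and 61.2 CPM, with Cd163 at 0 in both Dnmt3l KO libraries. In Dnmt3l KO against WT the endothelial markers had a median log2 fold change of 0.48, 5 of 6 of them positive, and the macrophage markers one of 1.21. The median was -1.87 for the fibroblast, -1.12 for the Sertoli, -2.18 for the Leydig and -0.07 for the myoid markers. Of the markers tested, 1 of 6 macrophage markers was called higher, beside 3.89% of all genes. Called lower were 1 of 5 fibroblast and 1 of 4 Leydig markers, beside 1.58% of all genes. The part of residual somatic cells and of Rn45s in the collagen levels was not tested. In bulk RNA, fewer cells of a type cannot be told apart from less RNA per cell. The 8 L/Z spermatocyte markers summed to 1377.5 to 4922.2 CPM at L/Z, highest in the Dnmt3l KO pair, against 41.2 to 173.4 CPM at P0. In Dnmt3l KO against WT spermatocytes, 7 of these 8 were positive, with a median log2 fold change of 1.30. Of the 8, 4 were called higher, beside 3.89% of all genes. The sorted cells of these genotypes thus differed in germ cell markers too, and the part of this in the collagen levels was not tested.

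**Figure D2:**
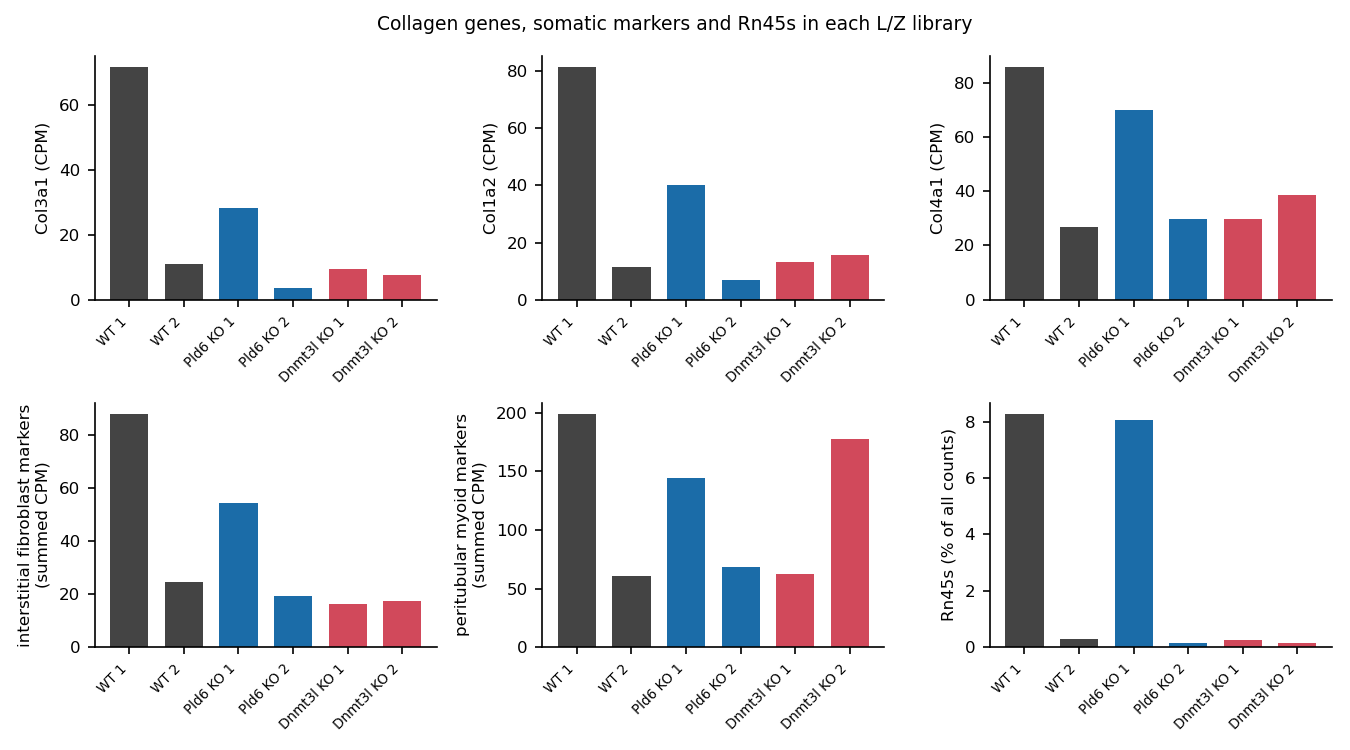
Bars give, for each of the 6 L/Z libraries (black, WT; blue, Pld6 KO; red, Dnmt3l KO; numbers are replicates), the CPM of Col3a1, Col1a2 and Col4a1, the summed CPM of interstitial fibroblast and of peritubular myoid markers, and the percentage of all counts in Rn45s. WT 1 and Pld6 KO 1 are highest for Col3a1, Col1a2, Col4a1 and the fibroblast markers and are the libraries with 8.27% and 8.06% Rn45s, whereas the myoid markers are also high in Dnmt3l KO 2.

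To ask how collagen genes differed in spermatocytes lacking Dnmt3l, Dnmt3l KO was compared with WT. Methylation of the collagen genes was not examined. Col4a5 rose and Col16a1 fell, and the low-count gene Col19a1 passed the test as higher but not under every setting. A gene was called at an adjusted p (FDR, edgeR quasi-likelihood test, Benjamini-Hochberg over all genes tested) under 0.05 and a fold change over 2. By this rule 3 of 39 collagen genes were called, 2 higher and 1 lower, beside 5.47% of the 14662 genes tested, 3.89% higher and 1.58% lower. At an unadjusted p under 0.05 there were 10 collagen genes, 3 higher and 7 lower, beside 26.7% of all genes. The DESeq2 Wald test called 4, Col4a5 and Col16a1 among them, but gave Col19a1 no adjusted p. Whether these shares differ from those of all genes was not tested.

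Col4a5 encodes the α5 chain of type IV collagen, which forms a specialized network and is mutated in Alport syndrome. It lies on chromosome X from 141475370 to 141689236 in GRCm38. It had 105 and 102 counts for WT, 130 and 196 for Pld6 KO, 352 and 414 for Dnmt3l KO spermatocytes. After scaling this was 8.89 and 8.67 CPM for WT, 18.9 and 15.5 for Pld6 KO, 70.4 and 29.6 for Dnmt3l KO, so the groups did not overlap and the Dnmt3l KO replicates differed from each other more than those of the other groups. The rise against WT was 2.49 ± 0.38 on the log2 scale (SE), or 5.63-fold (FDR 0.00871, edgeR). Col4a5 is on the study's own list of genes that it links to a nearby activated retrotransposon in Dnmt3l KO. That list was chosen on these spermatocyte libraries, so the rise is not independent evidence for it. For genes of this kind the study also examined neighbouring genes and allelic expression in F1 hybrids, which the values here do not cover. The tables hold a single value per gene and do not show which exons the fragments came from.

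Col4a6, its neighbour across the promoter region shown above, encodes the partner α6 chain. It had 26 and 11 counts for WT, 7 and 9 for Pld6 KO, 7 and 32 for Dnmt3l KO, with a log2 fold change of 0.28 ± 0.64 (SE) against WT (FDR 0.813, edgeR). The Dnmt3l KO values spanned those of WT at this low depth. The FPKM ratio of Col4a5 to Col4a6 was 4.18 and 9.66 in the WT, 19.4 and 22.8 in the Pld6 KO and 53.0 and 13.5 in the Dnmt3l KO L/Z libraries, against 2.77 to 4.41 in the 11 P0 libraries.

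Col16a1, a FACIT on chromosome 4 from 130047817 to 130099277, had 285 and 246 counts for WT, 87 and 187 for Pld6 KO, 21 and 55 for Dnmt3l KO. The levels were 24.1 and 20.9 CPM for WT, 12.6 and 14.7 for Pld6 KO, 4.20 and 3.94 for Dnmt3l KO, which are 3 separate ranges with close replicates. Against WT, Col16a1 fell by 2.47 ± 0.31 on the log2 scale (SE) in Dnmt3l KO (FDR 0.00349, edgeR).

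Col19a1, a rare FACIT of basement membrane zones on chromosome 1 from 24257683 to 24587922, is named after its values were seen, because its counts are below the minimum set for naming. It had 6 and 1 counts for WT, 24 and 24 for Pld6 KO, 14 and 38 for Dnmt3l KO, or 0.508 and 0.0850, 3.49 and 1.89, and 2.80 and 2.72 CPM. The mutant ranges overlapped each other and lay above WT. The log2 fold change was 3.16 ± 0.78 (SE) in Dnmt3l KO (FDR 0.0367, edgeR), a value that depends on few WT fragments and on how low counts are weighted.

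Leaving out Dnmt3l KO replicate 1 left 0 of 3 calls, with Col4a5 at 1.73 (FDR 0.0991) and Col16a1 at -2.53 (FDR 0.0821) on the log2 scale, the remaining library being assumed to vary like the other groups. Leaving out either WT or either Dnmt3l KO library ended the call of Col19a1 (FDR 0.0643 to 0.198), whose log2 fold change was 4.83 without WT replicate 1 and 2.41 without WT replicate 2. Its call was also lost with the GC and length offset (FDR 0.0589, and 0.0811 with the replicate block) and in limma on log2(FPKM + 1) and log2(FPKM + 0.1), where the log2 differences were 0.30 (FDR 0.266) and 1.53 (FDR 0.121). Without WT replicate 2, Pld6 KO replicate 1 or Pld6 KO replicate 2, 8 collagen genes were called, Col1a1, Col3a1 and Col4a4 among them as lower. With both Rn45s-rich libraries left out, an alternative chosen after seeing the data, Col4a5 was at 2.50 (FDR 7.33e-06) and Col16a1 at -2.37 (FDR 7.89e-05, edgeR).

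**Figure D3:**
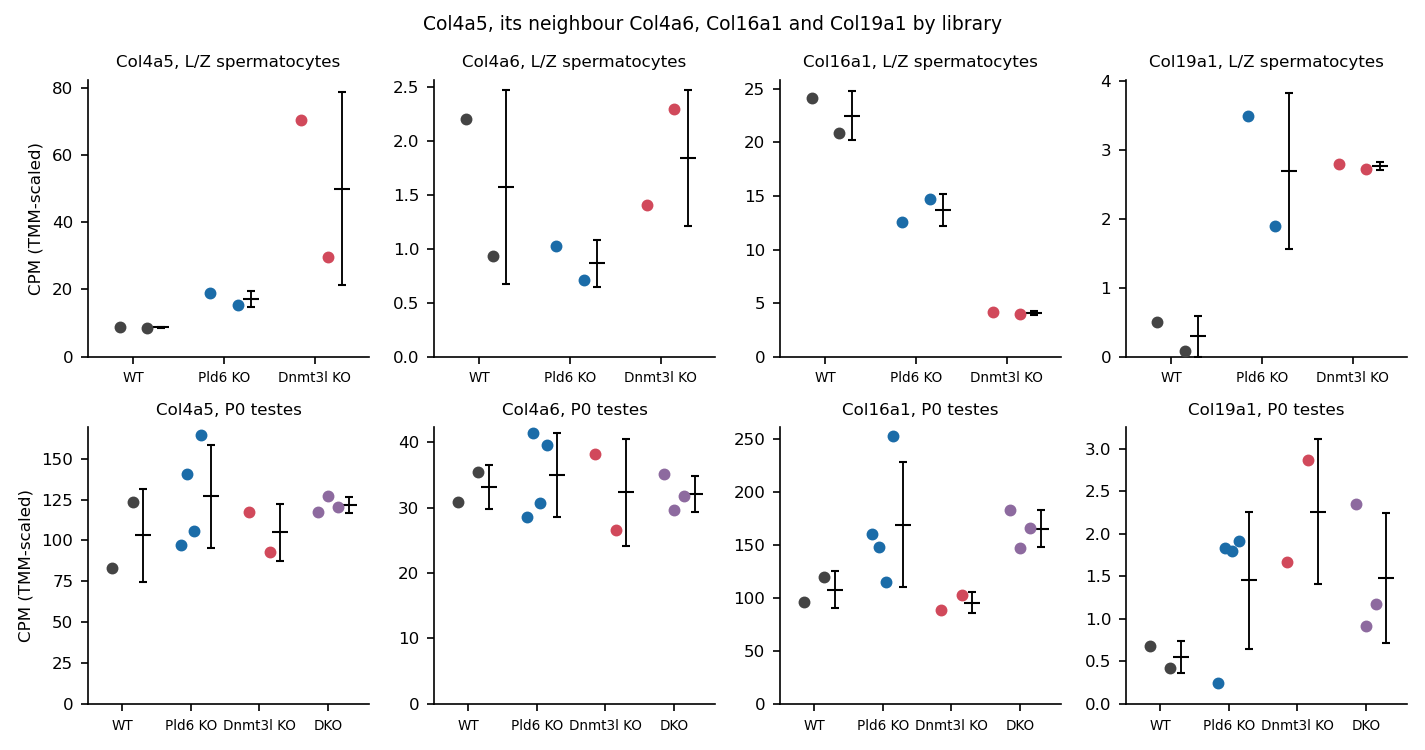
CPM of Col4a5, Col4a6, Col16a1 and Col19a1 in every library, L/Z spermatocytes above and P0 testes below, with 1 point per library and, beside each group, the mean (horizontal mark) and SD (bar). In spermatocytes the Col4a5 values are 8.67 and 8.89 CPM for WT against 29.6 and 70.4 for Dnmt3l KO and the Col16a1 values are 20.9 and 24.1 against 3.94 and 4.20, whereas at P0 the Dnmt3l KO points lie within or beside the WT points for both genes.

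Further collagen genes had lower means in Dnmt3l KO than in WT spermatocytes without passing the test. Col1a1 had 92.9 and 37.9 CPM for WT, 72.4 and 28.1 for Pld6 KO, 24.2 and 19.4 for Dnmt3l KO, with a log2 fold change against WT of -1.60 ± 0.47 (SE, FDR 0.0619, edgeR). Col3a1 was at -2.27 ± 0.88 (FDR 0.128) and Col4a4 at -2.23 ± 0.89 (FDR 0.138, edgeR). Col4a4 had 19.1 and 2.13 CPM for WT against 2.20 and 2.29 for Dnmt3l KO, so WT replicate 2 lay below both mutant libraries. The abundant Col5a1 did not fall, with a mean of 112.1 CPM for WT and 115.4 for Dnmt3l KO. All 5 beaded filament genes tested had a negative log2 fold change, from -1.93 to -0.71, as did 8 of 11 fibrillar genes, whereas the 8 FACITs were 5 positive and 3 negative. Over the 39 genes the median log2 fold change was -0.44, against -0.04 for all genes. This median was 0.21 without WT replicate 1 and 0.20 without both Rn45s-rich libraries, so its sign depended on WT replicate 1. With a factor for the Rn45s-rich libraries the median was 0.13. WT replicate 1 had both more Rn45s and higher sums of all the somatic marker lists given above than WT replicate 2. The part of either in the median was not tested. The median was -0.21 with the fit offset for GC content and transcript length. With this offset and a block for replicate number it was -0.008, against 0.0004 for all genes. The block alone gave -0.395.

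In the Pld6 KO spermatocytes 0 of 39 collagen genes were called, beside 0.225% of all genes. At an unadjusted p under 0.05 there were 4, beside 9.17% of all genes, and the DESeq2 Wald test called 0. Those 4 were Col19a1 (3.10 ± 0.78 on the log2 scale, SE, FDR 0.232), Col4a5 (0.96 ± 0.38, FDR 0.487), Col16a1 (-0.71 ± 0.28, FDR 0.490) and Col28a1 (1.46 ± 0.63, FDR 0.520, edgeR). Col28a1, a short collagen with von Willebrand-type domains, is named after its values were seen. Without Pld6 KO replicate 1, Col3a1 was called lower.

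Col4a5 and Col16a1 in Pld6 KO lay between WT and Dnmt3l KO in every library. Compared directly, Dnmt3l KO against Pld6 KO gave 0 calls among 39 collagen genes, beside 0.0477% of all genes, and 10 at an unadjusted p under 0.05, beside 17.5%. The log2 difference was 1.53 ± 0.37 for Col4a5 (SE, FDR 0.124) and -1.76 ± 0.31 for Col16a1 (SE, FDR 0.0686, edgeR). The DESeq2 Wald test called both. Col16a1 was also called without either WT library, and without Pld6 KO replicate 2 the calls were Col18a1 and Col1a1. These comparisons share the WT or mutant libraries and are not independent of each other.

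**Figure D4:**
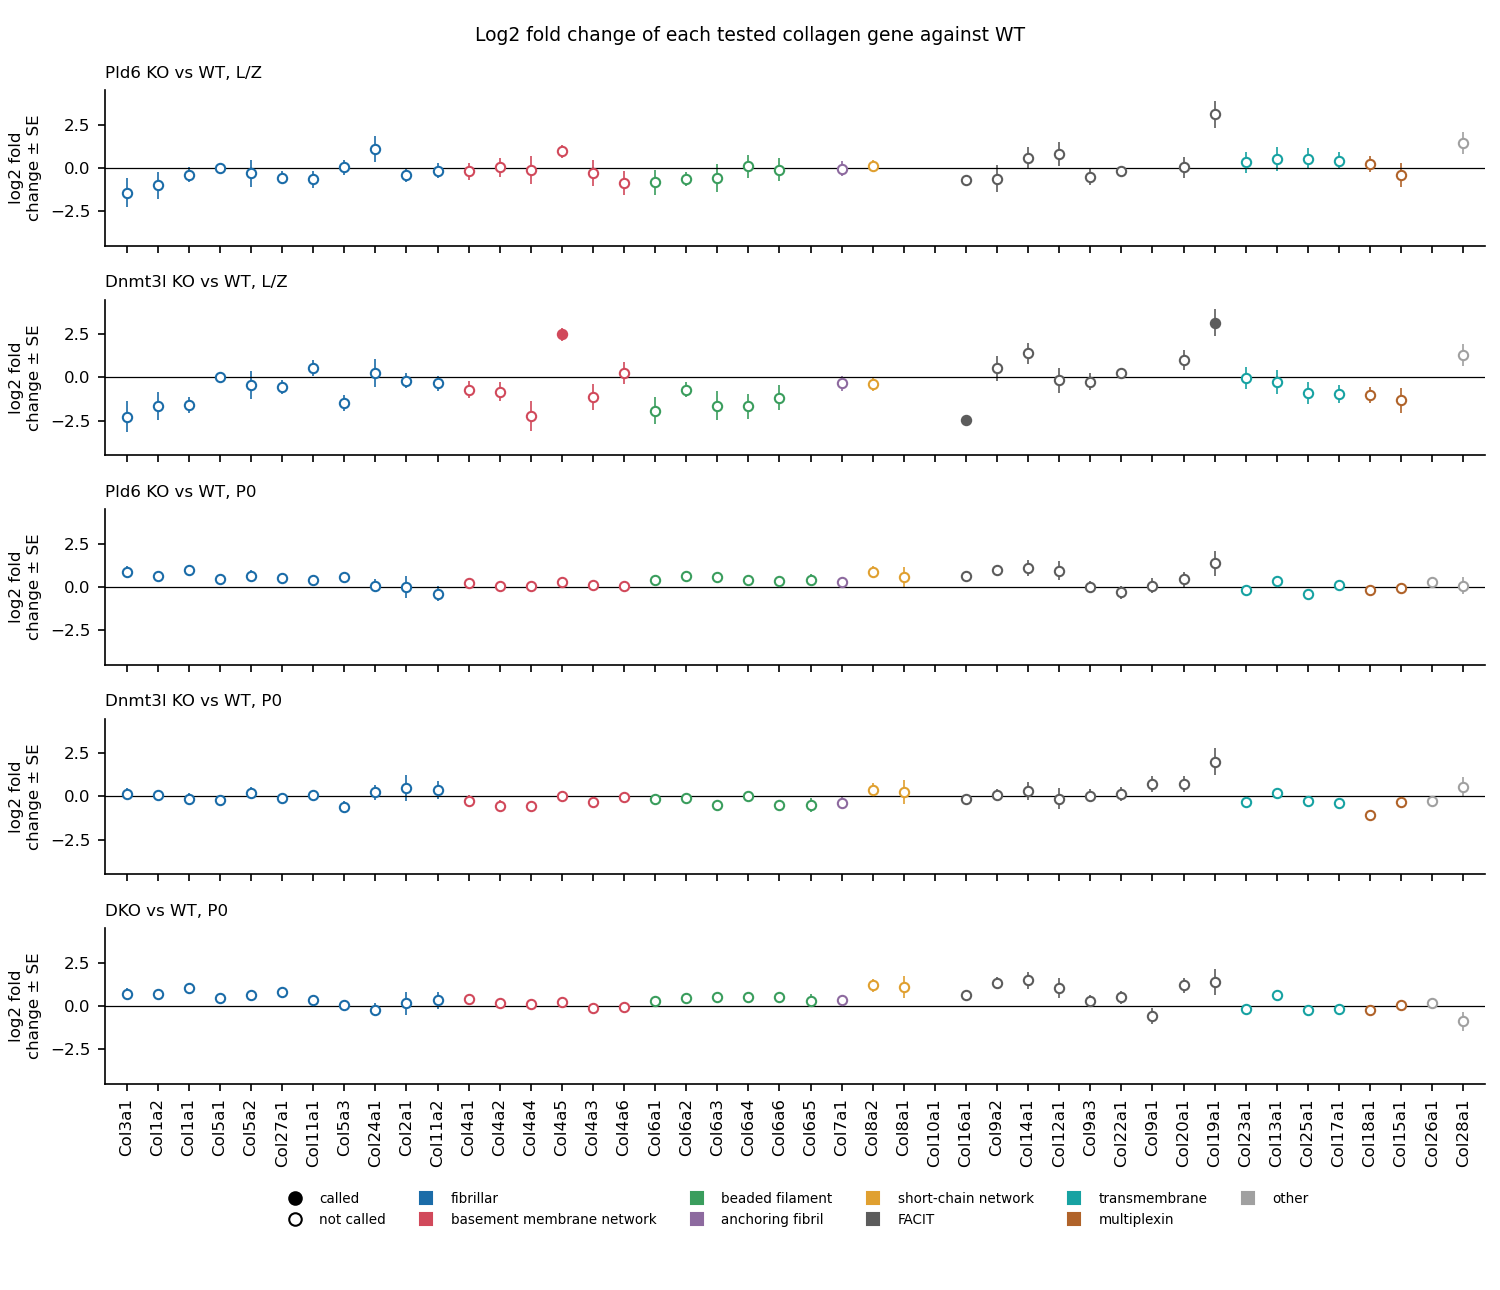
Log2 fold change (vertical axis, bars are SE) of each tested collagen gene against WT, for Pld6 KO and Dnmt3l KO at L/Z and for Pld6 KO, Dnmt3l KO and DKO at P0, with colors for structural classes and filled points for called genes. The filled points are Col4a5, Col16a1 and Col19a1 in Dnmt3l KO spermatocytes, and at P0 most points of Pld6 KO (36 of 43) and DKO (34 of 43) lie above 0.

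In P0 testes, 43 of the 44 genes were tested, Col10a1 having too few counts, and none was called in Pld6 KO, although most had higher values. Collagen genes took 1.23% and 1.36% of counts in the WT libraries, 1.51% to 2.43% for Pld6 KO, 0.979% and 1.46% for Dnmt3l KO, 1.75% to 2.00% for DKO. The WT and Dnmt3l KO ranges overlapped, and the Pld6 KO and DKO ranges lay above both. The share of Rn45s differed between the genotypes at P0 too. It was 0.0% of counts for every Pld6 KO library, and 0.114% and 0.104% for WT. Shares were higher where Dnmt3l was lacking, at 0.656% and 0.25% with this gene alone knocked out. The DKO replicates held 4.43%, 0.981% and 0.318%. The part of this difference in the P0 collagen levels was not tested.

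For Pld6 KO against WT, 0 of 43 were called (smallest FDR 0.963, edgeR), beside 0.00629% of the 15901 genes tested. At an unadjusted p under 0.05 there were 11, 10 of them higher, beside 5.06% of all genes, 3.14% higher, and DESeq2 called 0. The median log2 fold change was 0.37 over the collagen genes and 0.02 over all genes, with 36 of 43 positive. By class, 9 of 11 fibrillar, 8 of 9 FACIT, 6 of 6 beaded filament and 6 of 6 basement membrane genes were positive, the last with a median of 0.10, and both multiplexins were negative.

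Col1a1 had 853.7 and 1006.5 CPM in WT, and 1807.7, 1462.2, 1384.5 and 2684.0 CPM in Pld6 KO. All 4 Pld6 KO libraries lay above both WT libraries, by 0.98 ± 0.30 on the log2 scale (SE, FDR 0.963, edgeR). Col1a2 had 1922.3 and 2017.5 CPM in WT and 3106.4, 2898.1, 2322.4 and 3973.1 in Pld6 KO, again without overlap (0.64 ± 0.26, FDR 0.963, edgeR). Col3a1 had 1988.3 and 3012.1 CPM in WT and 4298.1, 3932.1, 2908.1 and 7162.2 in Pld6 KO, where the groups overlapped (0.87 ± 0.33, FDR 0.963, edgeR).

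Pld6 KO replicate 4 was the highest of the 11 P0 libraries for 20 of the 43 genes. Without it, the median was 0.22, 33 of 43 were positive and 5 had an unadjusted p under 0.05. Without WT replicate 1 the median was 0.31 and 0 did. Most marker lists moved in the same direction as the collagen genes in Pld6 KO, not only those of matrix-producing cells. Leydig markers were positive in 7 of 8 cases (median log2 fold change 0.56) and blood markers in 5 of 5 (0.95). Endothelial markers were positive in 6 of 6 (0.25) and macrophage markers in 6 of 6 (0.21). Sertoli markers went the other way, with 2 of 10 positive and a median of -0.30. The myoid marker sum was 923.2 and 1255.3 CPM for WT and 1261.5 to 1783.1 over the 4 Pld6 KO libraries, all above WT, with a median log2 fold change of 0.56 and 4 of 6 markers at an unadjusted p under 0.05. All 6 fibroblast markers were positive, with a median of 0.26. Pld6 KO replicate 4 held the highest fibroblast, myoid and Leydig marker sums, 4323.8, 1783.1 and 3874.4 CPM. Over the other 10 libraries these ran from 2409.5 to 3603.1, from 908.7 to 1462.7 and from 1513.1 to 2958.1 CPM. Sertoli markers summed to 5064.7 and 4799.6 CPM in WT and to 3289.4 to 4283.7 in the mutant libraries. No fibroblast, myoid, Leydig or Sertoli marker was at 0 in a P0 library, and the part of cell composition was not tested.

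In the Dnmt3l KO testes 0 of 43 genes were called, beside 0% of all genes. Dnmt3l itself, at 5.27 ± 1.09 CPM in WT and 0.131 ± 0.0627 in Dnmt3l KO (SD, n = 2), was thus not called either. By Cuffdiff the study did report changed genes in this comparison and in Pld6 KO testes. A lack of calls at P0 is therefore not evidence of no change. At an unadjusted p under 0.05 there were 2, beside 12.9%, and DESeq2 called 0. Col18a1 had 458.7 and 353.1 CPM in WT and 161.0 and 226.9 in Dnmt3l KO, below both (-1.07 ± 0.31 on the log2 scale, SE, FDR 0.279, edgeR). Col19a1 had 8 and 5 counts for WT, against 19 and 33 for Dnmt3l KO (2.02 ± 0.79, FDR 0.344, edgeR). The median over collagen genes was -0.09 and became 0.26 with the GC and length offset, so the group as a whole had no stable direction. Col4a5 and Col16a1, which had changed in spermatocytes, were at 0.03 ± 0.25 and -0.17 ± 0.29 at P0 (FDR 0.974 and 0.810, edgeR). The Col4a5 level was 83.0 and 123.2 CPM for WT, 96.9 to 164.7 for Pld6 KO, 117.1 and 92.8 for Dnmt3l KO, 117.2 to 127.2 for DKO.

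In DKO testes 0 of 43 genes were called against WT, beside 0.0126% of all genes, and 10 were higher and none lower at an unadjusted p under 0.05, beside 7.97% of all genes, 5.14% higher. DESeq2 called Col9a2. The median was 0.37 with 34 of 43 positive. Col1a1 had 2405.8, 1858.0 and 1474.2 CPM, above both WT libraries (1.04 ± 0.32, FDR 0.410, edgeR), and Col1a2 3593.3, 3195.5 and 2858.7 (0.71 ± 0.27, FDR 0.511, edgeR). The Pld6 KO and DKO comparisons share the same WT pair.

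The FACITs Col9a2 and Col14a1 and the short-chain Col8a2 are given next, the first pair being named after their values were seen. Col9a2, a chain of type IX collagen best known from cartilage, had 38.4 and 48.5 CPM in WT, 111.5, 116.8 and 102.0 in DKO, and 50.6 to 139.1 in Pld6 KO (DKO against WT 1.34 ± 0.33, FDR 0.354, edgeR). Its partner Col9a1 was at 0.880 to 1.07 CPM in DKO, and the FPKM ratio of Col9a1 to Col9a2 was 0.0424 or less in every P0 library. Col14a1, which binds the surface of fibrils, had 41.4 and 46.7 CPM in WT, 111.6, 134.1 and 125.5 in DKO, and 58.6, 50.3, 62.6 and 203.2 in Pld6 KO (DKO against WT 1.49 ± 0.50, FDR 0.442, edgeR). Without Pld6 KO replicate 4 in the fit, Col14a1 was called higher in DKO. Col8a2, of a network under endothelia, had 24.1 and 32.2 CPM in WT and 53.2, 77.0 and 64.2 in DKO (1.20 ± 0.37, FDR 0.412, edgeR). The DKO libraries were above both WT libraries for all 3 genes.

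**Figure D5:**
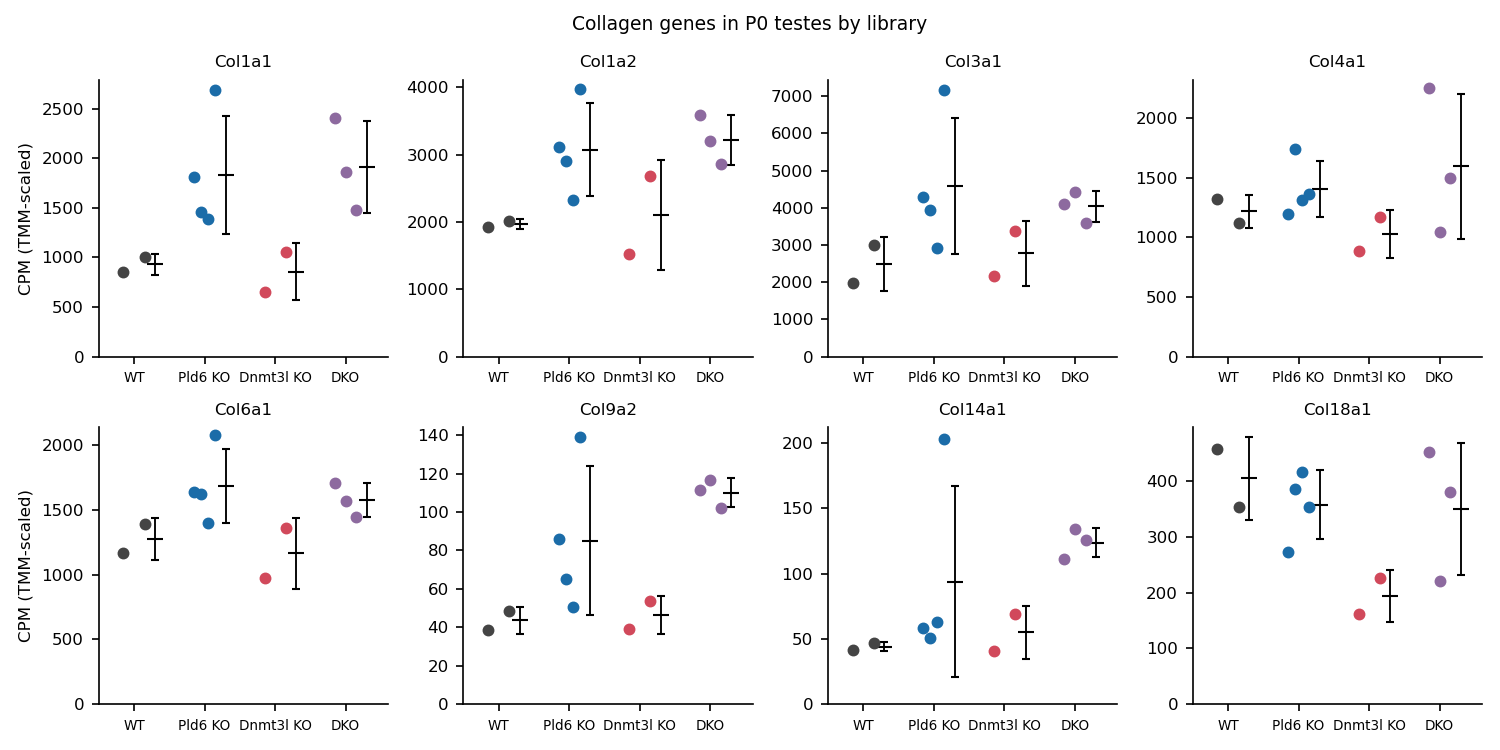
CPM of 8 collagen genes in each P0 library, with 1 point per library and, beside each group, the mean (horizontal mark) and SD (bar). Pld6 KO and DKO points lie above WT for Col1a1 and Col1a2, Pld6 KO replicate 4 is the top point for Col3a1 (7162.2 CPM) and Col14a1 (203.2 CPM), and the Dnmt3l KO points of Col18a1 (161.0 and 226.9 CPM) lie below both WT points, with DKO replicate 2 at 220.5 CPM between them.

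DKO was then compared with each single mutant. Against Pld6 KO, 0 of 43 genes were called, beside 0% of all genes, with 2 at an unadjusted p under 0.05, beside 6.02%, and DESeq2 called 0. Col1a1 differed by 0.06 ± 0.26 and Col3a1 by -0.18 ± 0.28 on the log2 scale (SE), less than the spread between replicates. Against Dnmt3l KO, 0 were called, beside 0.0755% of all genes, but 20 had an unadjusted p under 0.05, 18 of them higher in DKO, beside 17.8% of all genes, 9.99% higher. DESeq2 called 4. The median was 0.48. With the GC and length offset the median was 0.06 and 4 genes, not 20, had an unadjusted p under 0.05. The lowest FDR was that of Col27a1, a fibrillar gene named after its values were seen, with 72.9, 98.6 and 93.4 CPM in DKO against 45.9 and 49.3 in Dnmt3l KO (0.89 ± 0.20, FDR 0.0874, edgeR). Dnmt3l KO replicate 1 was the lowest of the 11 libraries for 22 of the 43 genes. Without it, 7 genes had an unadjusted p under 0.05. Without Pld6 KO replicate 4, Col9a2 and Col14a1 were called higher in DKO.

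An interaction term asked whether DKO departed from additivity of both mutations, with no threshold on the fold. No collagen gene of 43 passed, beside 0% of all genes. At an unadjusted p under 0.05 there were 2, beside 10.9%, and DESeq2 also found 0. Col18a1, lower in Dnmt3l KO, was at 350.9 ± 118.6 CPM (SD, n = 3) in DKO and 357.7 ± 61.9 (SD, n = 4) in Pld6 KO, with a departure of 1.04 ± 0.38 on the log2 scale (SE, FDR 0.415, edgeR).

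Finally, L/Z and P0 effects of each single mutation were set against each other by fitting the 14 libraries of WT, Pld6 KO and Dnmt3l KO jointly. Each fold change lies within its own table, but stage cannot be told apart from tissue, sorting and read type. For Dnmt3l KO, 2 of 43 collagen genes differed, beside 0.665% of the 16547 genes tested, and 6 had an unadjusted p under 0.05, beside 17.2%. Col4a5 rose by 2.41 ± 0.49 more on the log2 scale (SE, FDR 0.0434) at L/Z than at P0, and Col16a1 was lower by -2.34 ± 0.44 (SE, FDR 0.0388, edgeR). Both FDRs were near the threshold, and leaving out any of the L/Z WT, L/Z Pld6 KO, P0 WT or P0 Dnmt3l KO libraries, or Dnmt3l KO replicate 1 at L/Z or Pld6 KO replicate 2 at P0, left 0 of the 2, and leaving out Dnmt3l KO replicate 2 at L/Z left Col4a5. For Pld6 KO 0 of 43 differed, beside 0.0121% of all genes, with 5 at an unadjusted p under 0.05, beside 9.52%, and DESeq2 found 0.

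Genes that act on collagen were mostly without a call. In Dnmt3l KO spermatocytes, 0 of 20 tested genes of collagen biosynthesis and export, 0 of 12 of procollagen processing and cross-linking, 0 of 9 collagen receptors and 0 of 8 collagen-degrading enzymes and inhibitors were called. Of 17 tested basement membrane partners 1 was called, beside 5.47% of all genes, the laminin chain gene Lama4, which rose by 1.92 ± 0.39 on the log2 scale (SE, FDR 0.0216, edgeR). Lama4 was at 1.51 ± 0.38 in Pld6 KO (FDR 0.238, edgeR). Plod2, the lysyl hydroxylase of cross-linking sites, was at 0.99 ± 0.23 (FDR 0.0300, edgeR), just under the fold threshold. In the other 10 tests none of these 5 lists held a called gene.

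At P0, the perlecan gene Hspg2, whose product binds type IV collagen and laminin, was at -0.88 ± 0.24 in Dnmt3l KO against WT (SE, FDR 0.261) and at 1.20 ± 0.23 in DKO against Dnmt3l KO (FDR 0.0612, edgeR). All 18 basement membrane partners had positive log2 fold changes in DKO against Dnmt3l KO, with a median of 0.40, beside 0.42 for the 6 type IV chains and -0.01 for all genes, of which 49.1% were positive. Of the 18, 6 had an unadjusted p under 0.05, beside 17.8% of all genes. Their summed CPM was 5945.2 in Dnmt3l KO replicate 1 and 8599.4 in replicate 2. The DKO libraries had 8564.8 to 10721.2 CPM and the WT libraries 8593.0 and 8482.4. Dnmt3l KO replicate 2 thus lay within the DKO range and replicate 1 below it. Procollagen processing genes were positive in 12 of 13 cases in DKO against WT and in 10 of 13 in Pld6 KO against WT, with medians of 0.29 and 0.20. Genes of biosynthesis and export were positive in 9 and 14 of 22 cases, with medians of -0.07 and 0.08. Over all genes, 52.0% and 53.2% were positive in these comparisons, with medians of 0.01 and 0.02.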

How the data were processed

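The authors aligned stranded poly(A)+ RNA-seq reads (single 50 bp at L/Z, paired 100 bp at P0) with TopHat to mm10 (GRCm38) and quantified RefSeq genes with Cuffdiff, versions not given in the sources used here. Each deposited table, 1 per stage, holds estimated counts of fragments and FPKM per gene and library. Of the estimated counts, 97.77% and 97.67% were exactly whole, with no tolerance. Cuffdiff divides fragments between overlapping transcripts, so overlapping genes are uncertain. Genes with a status other than OK (6 and 2) were left out. The tables number replicates from 0 and were matched in order to labels numbered from 1. Total counts were 5194238 to 14578341 at L/Z and 9900346 to 23498968 at P0.

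Estimated counts were rounded, filtered (filterByExpr), scaled by TMM and tested with edgeR 4.0.16 (glmQLFit, glmQLFTest) in R 4.3.3, fitting the groups of each stage jointly so that they share the dispersion. Calls required an FDR under 0.05 and a fold over 2; the interaction and stage tests had no fold threshold. Alternatives used DESeq2 1.42.0 and limma 3.58.1 on log2(FPKM + 1) and log2(FPKM + 0.1). On simulated data, 73.5% (L/Z, 14415 genes) and 86% (P0, 15715 genes) of genes changed 4-fold were recovered, with 3 and 5 false calls. The simulated counts varied independently by gene with the fitted dispersions, without shifts shared by many genes of a library. These shares are therefore not the power of the test on the real libraries. Symbols were matched to RefSeq GRCm38.p6, and tables were made with Python and pandas.

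Named genes were Col1a1, Col1a2, Col3a1 and Col4a1 to Col4a6, called genes without overlap and with at least 50 counts in the higher group, the 5 highest in WT FPKM at each stage, and the highest at P0 of each class not yet named. Members, classes, lists and this rule were chosen with earlier results of these data known. Same-numbered replicates did not deviate together in every pair (r from -0.386 to 0.528), so the number was not used to pair them.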

Additional observations from a re-analysis of the deposited data

Results flagged for a closer look

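In the group of 4 P0 Pld6 KO libraries, 44 collagen genes were examined for a library far from the other 3 (Dixon's test, which marks about 1 in 20 groups by chance), and 2 were found. Col14a1 reached 203.2 CPM in replicate 4 against 62.6 CPM in the next library and 50.3 CPM in the lowest. Col19a1 had 0.248 CPM, or 3 counts, in replicate 1 against 1.80 to 1.91 CPM in the other 3. The groups of 2 and 3 libraries were too small for this test.

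The effect of Dnmt3l KO differed between spermatocytes and P0 testes for 2 genes by the test of the difference itself. For Col4a5 the log2 fold changes differed by 2.41 (FDR 0.0434, edgeR). For Col16a1 the difference was -2.34 (FDR 0.0388, edgeR). Stage cannot be told apart from tissue, sorting and read type.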

How the results depend on the processing

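The number of collagen genes called in Dnmt3l KO against WT at L/Z was 3, and became 6 without a filter on low counts, 7 with only the compared groups in the fit, and 0 to 8 when 1 library was left out. With the other settings it was 2 to 4. For Pld6 KO against WT at L/Z the count of 0 became 2 with a factor for the libraries rich in Rn45s, and was 0 to 1 when 1 library was left out. For Dnmt3l KO against Pld6 KO at L/Z the count of 0 became 2 without a filter, without both Rn45s-rich libraries and by DESeq2, 1 with only the compared groups, and 0 to 2 when 1 library was left out. For DKO against WT at P0 the count of 0 became 3 with only the compared groups, 1 by DESeq2 and 0 to 1 when 1 library was left out. For DKO against Dnmt3l KO it became 1 with only the compared groups, 4 by DESeq2 and 0 to 2 when 1 library was left out. The 2 genes whose Dnmt3l KO effect differed between stages became 1 when genes under a mean of 50 counts were dropped and 0 to 2 when 1 library was left out. The cause of these changes was not tested. Signs were compared with the main fit for the collagen genes followed across settings, not for all 44. None of their main-fit calls changed sign, and no call under another setting had the opposite sign to the main fit. Uncalled values did change sign. Col1a2 in Dnmt3l KO against WT at L/Z, not called in the main fit, ran from -2.47 to 0.32 over the settings. Leaving out a library made 27 gene results lose and 24 gain the call, and the other settings 6 and 29. Depth limits the genes with few counts, such as Col19a1 and Col4a6 at L/Z.

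Same-numbered libraries did not deviate together in every pair. With the replicate block, the count for the stage difference in Dnmt3l KO became 1 (Col16a1), and with the block and the GC and length offset together, DKO against WT at P0 became 1 (Col14a1). With the Dnmt3l KO numbers crossed in the block, an alternative chosen after seeing the data, the counts were 8 for Dnmt3l KO against WT and 2 against Pld6 KO at L/Z.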
